A study of Mus musculus with 8 samples.

Results

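The genes described here are the matrix metalloproteinases (MMPs), the ADAMTS proteases, the ADAMTS-like proteins and the tissue inhibitors of metalloproteinases (TIMPs), chosen by their gene symbols alone. The rule found 51 of the 55487 genes in the count table, namely 23 MMPs, 19 ADAMTS proteases, 5 ADAMTS-like proteins and 4 TIMPs. RNA sequencing compared the stromal vascular fraction of subcutaneous MC38 tumors, a murine colorectal carcinoma line labelled with GFP, from Bmal1+/+ and Bmal1-/- mice, with 4 libraries per group. Bmal1 encodes an activator of the circadian clock, and both groups carried the same tumor line. The tumors were digested with collagenases, GFP-positive cells were sorted out, and the libraries were made from the remaining host cells. The sources used here do not say whether each library came from a separate mouse, so p-values measure only the spread between these libraries, which may be technical. The knockout is in the germline, so every host cell type lacks the gene by its label. Neither sex nor age of the mice is given in the sources used here.

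Total counts per library lay between 14054825 and 18449143, and a count of 3, taken as the detection floor, was worth 0.163 to 0.213 CPM (counts scaled to the library total). Several values went against the labels. The targeted gene, Bmal1 (Arntl), stood at 0.960 to 2.71 CPM in Bmal1+/+ samples and at 30.1 to 35.0 CPM in the other group, so the latter is called the libraries labelled Bmal1-/-. Dbp, a gene driven by the clock, was lower there instead, at 67.0 to 113 CPM in Bmal1+/+ and 3.73 to 6.97 CPM with the label Bmal1-/-. What lies behind the Bmal1 and Dbp values was not tested. Transcripts of the Y chromosome (4 genes, summed) were at 0 in all Bmal1+/+ libraries and at 121 to 144 CPM with the Bmal1-/- label, while Xist followed the opposite pattern, so sex and genotype cannot be told apart in any comparison below. Hepatocyte transcripts were abundant in every library, with 10 markers summing to 102545 to 112211 CPM in Bmal1+/+ samples and 58256 to 63723 CPM in the other group, whereas the intestinal marker Cdx2 was at 0 throughout. The fall in this sum was that of Alb, with a mean of 69270 CPM in Bmal1+/+ and 16144 CPM in the other group. Of the other hepatocyte markers, Apoa1 was higher with the Bmal1-/- label and 8 were not called different. Markers of liver macrophages and sinusoidal endothelium were also counted in all 8 libraries, and Fap, a marker of tumor fibroblasts, did not pass the expression filter. The markers thus do not show the labelled tumor stroma as the main source of RNA. Replicate 4 of the libraries labelled Bmal1-/- stood apart, with 7751 CPM of the acute-phase gene Saa1 against at most 17.7 CPM in the other 3 of its label.

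MMPs are zinc-dependent proteases that are made as inactive precursors and cleave collagens and other matrix proteins, and TIMPs block them by binding the active site. ADAMTS proteases carry thrombospondin repeats and cut proteoglycans, procollagen propeptides or von Willebrand factor, while the ADAMTS-like proteins share the repeats but have no protease domain and bind microfibrils. In liver and in tumors, fibroblasts, stellate cells, endothelium and leukocytes are known sources of these transcripts.

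The start sites of 5 genes are shown first, because promoters of an MMP gene cluster on chromosome 9 differed in their letters from those of most other members. Timp3 and Timp2 are the TIMPs that passed the filter, Adamts1 and Adamts13 are the ADAMTS genes with the highest levels, and Mmp13, an interstitial collagenase, stands for that cluster. Each run holds 250 bases before and 50 after a start site from RefSeq (GRCm38.p6), 5′ to 3′ on the strand of the gene. Capitals mark the GC box GGGCGG, the TATA motif TATAAA and the AP-1 motif TGANTCA, searched on both strands. Positions are chr10:86300162-86300461 (plus strand) for Timp3, chr11:118355362-118355661 (minus) for Timp2, chr16:85803064-85803363 (minus) for Adamts1, chr2:26973166-26973465 (plus) for Adamts13 and chr9:7272264-7272563 (plus) for Mmp13.
Timp3: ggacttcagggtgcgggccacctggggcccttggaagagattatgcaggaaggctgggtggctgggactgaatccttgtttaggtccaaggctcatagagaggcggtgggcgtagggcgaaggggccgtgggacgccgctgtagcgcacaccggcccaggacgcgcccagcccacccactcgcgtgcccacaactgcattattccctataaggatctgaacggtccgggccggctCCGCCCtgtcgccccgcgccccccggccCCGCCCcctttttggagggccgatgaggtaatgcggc
Timp2: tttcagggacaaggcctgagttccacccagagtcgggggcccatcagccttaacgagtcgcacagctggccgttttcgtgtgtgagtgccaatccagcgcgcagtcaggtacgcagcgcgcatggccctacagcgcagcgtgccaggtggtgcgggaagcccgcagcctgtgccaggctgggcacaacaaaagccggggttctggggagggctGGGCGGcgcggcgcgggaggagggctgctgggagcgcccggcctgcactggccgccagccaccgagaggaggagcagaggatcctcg
Adamts1: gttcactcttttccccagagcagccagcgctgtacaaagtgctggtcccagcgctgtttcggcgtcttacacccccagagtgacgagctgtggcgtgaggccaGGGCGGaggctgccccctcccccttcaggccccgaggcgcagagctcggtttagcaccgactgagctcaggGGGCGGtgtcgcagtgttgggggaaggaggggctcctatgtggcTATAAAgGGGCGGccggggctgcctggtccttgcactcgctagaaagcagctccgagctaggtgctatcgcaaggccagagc
Adamts13: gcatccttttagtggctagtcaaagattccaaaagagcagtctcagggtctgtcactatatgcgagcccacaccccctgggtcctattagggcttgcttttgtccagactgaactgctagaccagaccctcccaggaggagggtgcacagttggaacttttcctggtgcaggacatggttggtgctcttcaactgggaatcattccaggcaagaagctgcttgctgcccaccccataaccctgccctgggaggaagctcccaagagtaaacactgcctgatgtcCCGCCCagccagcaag
Mmp13: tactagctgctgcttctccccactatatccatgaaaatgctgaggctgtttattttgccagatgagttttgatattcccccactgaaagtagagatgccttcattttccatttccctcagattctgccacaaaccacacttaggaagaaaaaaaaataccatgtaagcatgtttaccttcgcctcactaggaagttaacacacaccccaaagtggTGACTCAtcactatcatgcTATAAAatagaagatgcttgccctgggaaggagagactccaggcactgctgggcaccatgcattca

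In Adamts1 the TATA motif spanned positions -32 to -27 and adjoined a GC box at -25 to -20, where +1 is the start site. Mmp13 had no GC box, but an AP-1 motif at -35 to -29 and a TATA motif at -16 to -11. Of 36 members with a promoter in the RefSeq table, 15 passed the expression filter, and 14 of these 15 held a GC box, 2 a TATA motif and 0 an AP-1 motif. Of the 10 MMP genes in the chromosome 9 cluster, 9 held the TATA motif, 8 the AP-1 motif and 0 a GC box, and Mmp27 was the only one of them to pass the filter. The other 12 members that did not pass lie outside the cluster, and of these 8 held a GC box, 1 the TATA motif and 0 the AP-1 motif. Among all 32851 promoters of the table, 35.7% held the GC box, 13.6% the TATA motif and 7.81% the AP-1 motif. The E-box CACGTG, the sequence that BMAL1 and CLOCK bind, was in 7.15% of all promoters. It was in 2 of the 36 members with a promoter (Adamts17 and Mmp7, neither tested) and in 0 of the 15 tested, both near that share. These matches describe letters in a 300-base window, not binding.

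Of the 51 members, 24 passed the expression filter and were tested with edgeR's quasi-likelihood test, with p-values adjusted over all 14353 genes tested. The libraries labelled Bmal1-/- were lower in 12 of the 24 (adjusted p below 0.05), higher in 1, and not called different in 11. Of all genes tested, 16.2% were lower, 14.9% higher and 31.1% called in either direction. The median log2 fold change of the 24 tested members was -0.67, against 0.02 over all genes, and 20 of the 24 had a value below 0. Filtering bears on these figures, since Adamtsl1 and Adamtsl5 passed through their Bmal1+/+ libraries alone. By the criterion of the study's methods, an absolute log2 fold change above 1 with an unadjusted p below 0.05, 7 members were lower and 1 was higher, where 8.71% and 5.41% of all genes were. The CPM of the groups did not overlap in 11 members that were lower and 1 that was higher, against 16.8% and 16.7% of all genes. Without replicate 4 of the label Bmal1-/-, 11 members were lower and 1 was higher.

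**Figure D1:**
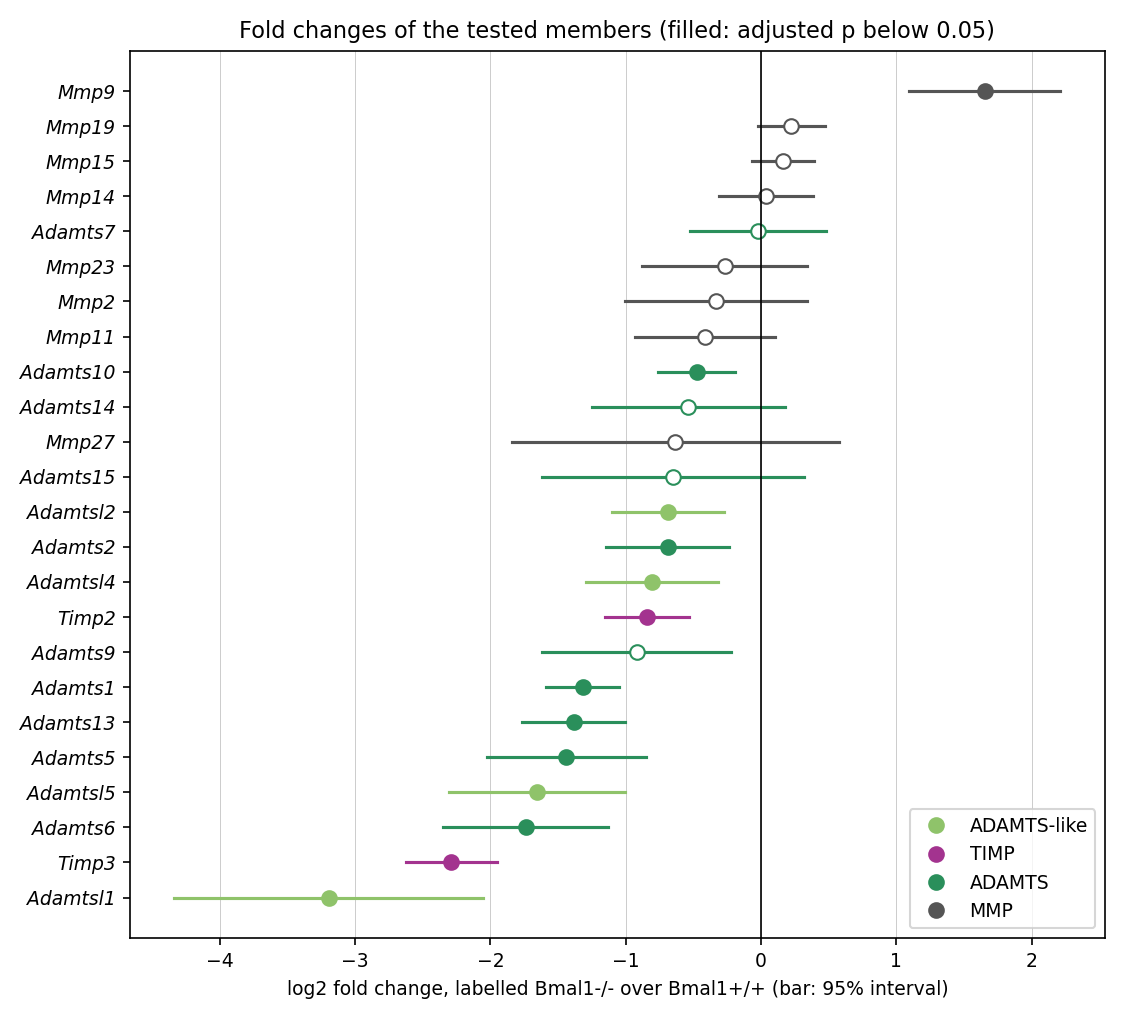
Log2 fold changes of the 24 tested members, as the libraries labelled Bmal1-/- over Bmal1+/+ (x axis), with bars of the 95% interval and 1 row per gene. Filled points have an adjusted p below 0.05 (edgeR), and the colors give the family. The 4 ADAMTS-like genes and both TIMPs lie to the left of 0, and Mmp9 is the filled point to the right.

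Both TIMPs that passed the filter were lower, as were 16.2% of all genes tested. Timp3 had the largest difference in mean CPM among the 13 called members. Timp3, a matrix-bound inhibitor that acts on MMPs as well as ADAM and ADAMTS proteases, was at 56.3, 64.9, 45.7 and 54.5 CPM in Bmal1+/+ replicates 1 to 4. The matching values with the label Bmal1-/- were 14.2, 11.1, 11.5 and 8.41 CPM. All 4 of the latter lay below all 4 Bmal1+/+ values. Group means were 55.3 ± 7.89 and 11.3 ± 2.38 CPM (SD, n = 4 each), which is 4.89-fold lower (log2 fold change -2.29, standard error (SE) 0.17, adjusted p = 1.8e-05, edgeR quasi-likelihood). Leaving out replicate 4 of the label Bmal1-/- gave -2.17. Timp3 lies on chromosome 10 from 86300372 to 86349506 of GRCm38, and its exons overlap those of Syn3 on the other strand, which had at most 22 counts in a library.

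Timp2, which inhibits MMPs and also helps MMP14 to activate pro-MMP2 at the cell surface, was lower by less. Its CPM were 14.9, 19.1, 12.4 and 19.0 in Bmal1+/+ and 8.99, 9.97, 8.68 and 8.82 in the other group, in replicate order. The groups did not overlap, and the spread was wider in Bmal1+/+, with means of 16.3 ± 3.26 against 9.12 ± 0.585 CPM (SD, n = 4 each). The difference was 1.79-fold (log2 fold change -0.84, SE 0.16, edgeR adjusted p = 0.0033). Timp1, the TIMP that is induced in fibrosis and inflammation, was near the floor in every library, with at most 3 counts. Timp4 had at most 1 count, so for neither could a difference be seen at this depth.

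**Figure D2:**
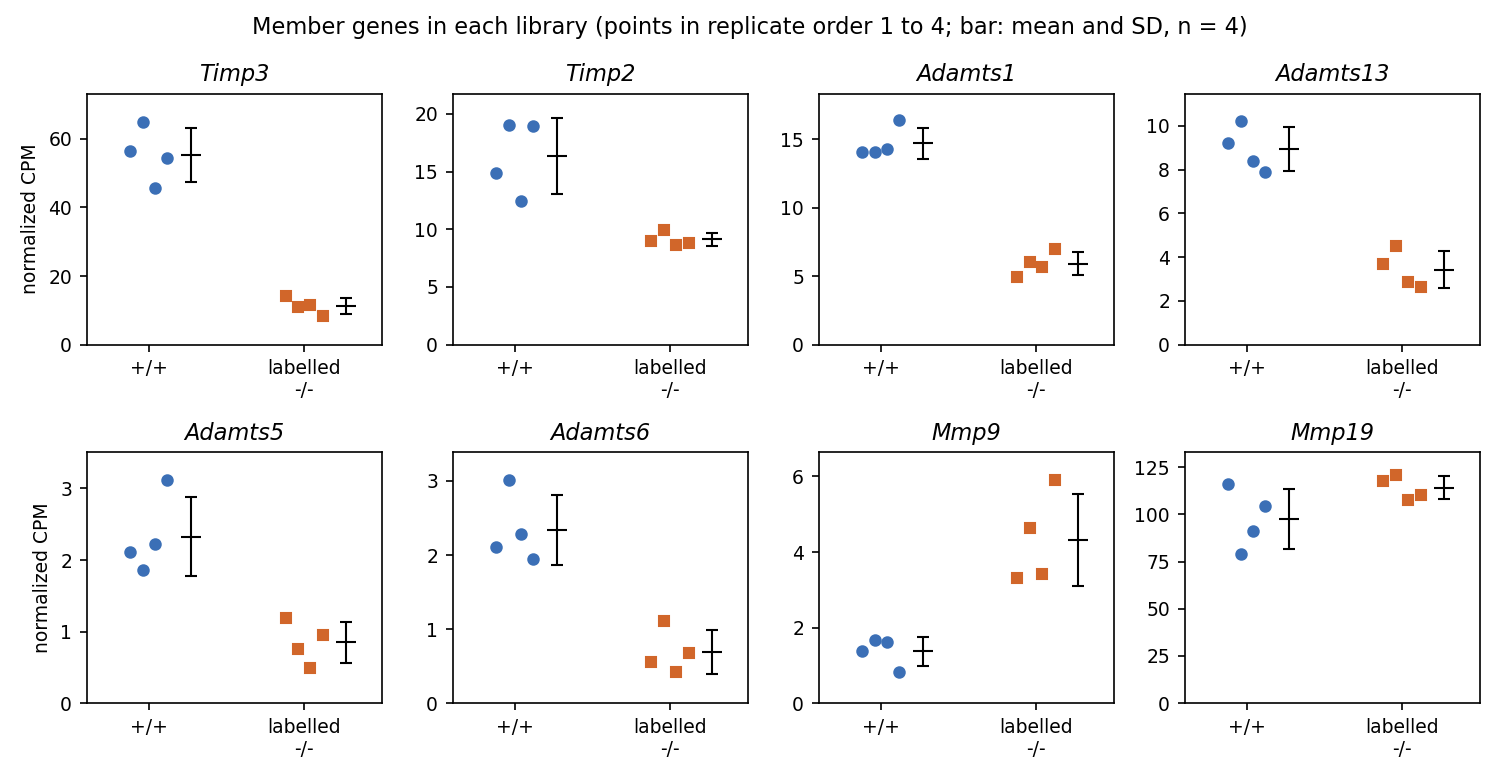
Normalized CPM (y axis, linear, from 0) of 8 members in each library, with Bmal1+/+ as circles and the libraries labelled Bmal1-/- as squares, in replicate order from left to right, and the mean and SD (n = 4) beside them. The groups are apart in Timp3, Timp2, Adamts1, Adamts13, Adamts5, Adamts6 and Mmp9, and they overlap in Mmp19.

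Of the 8 MMPs tested, 0 were lower and 1 was higher, and their median log2 fold change was -0.12. Both counts are near the shares over all genes tested, 16.2% lower and 14.9% higher. The count of lower MMPs was also 0 at an unadjusted p below 0.05 from edgeR and with DESeq2 or limma-voom. Mmp9, a gelatinase that cleaves type IV collagen and is abundant in neutrophils and macrophages, was at 1.38, 1.66, 1.61 and 0.835 CPM in Bmal1+/+ and at 3.31, 4.64, 3.42 and 5.90 CPM with the label Bmal1-/-. Every value of the latter exceeded every Bmal1+/+ value. The means were 1.37 ± 0.379 and 4.32 ± 1.22 CPM (SD, n = 4 each), a 3.15-fold difference (log2 fold change 1.65, SE 0.29, edgeR adjusted p = 0.0023).

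Neutrophil markers were high in 1 library of this label. The summed CPM of 8 neutrophil genes was 2.53 to 6.40 in Bmal1+/+ libraries, 0.970 to 1.75 in replicates 1 to 3 of the label Bmal1-/- and 42.1 in its replicate 4. Of the 8 genes, 2 passed the filter (S100a8 and S100a9) and neither was called different. Without replicate 4, Mmp9 still differed by 1.47 on the log2 scale (adjusted p = 0.0040, edgeR). Mmp8, the neutrophil collagenase, showed the pattern of the markers instead, with 27 counts in replicate 4 and 1, 0 and 0 in replicates 1 to 3, against 0, 2, 5 and 11 in Bmal1+/+. Lcn2, whose product binds MMP9, stood at 1073 CPM in replicate 4 and at 2.56 to 9.55 CPM in the other 3, below the 20.9 to 34.1 CPM of Bmal1+/+.

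**Figure D3:**
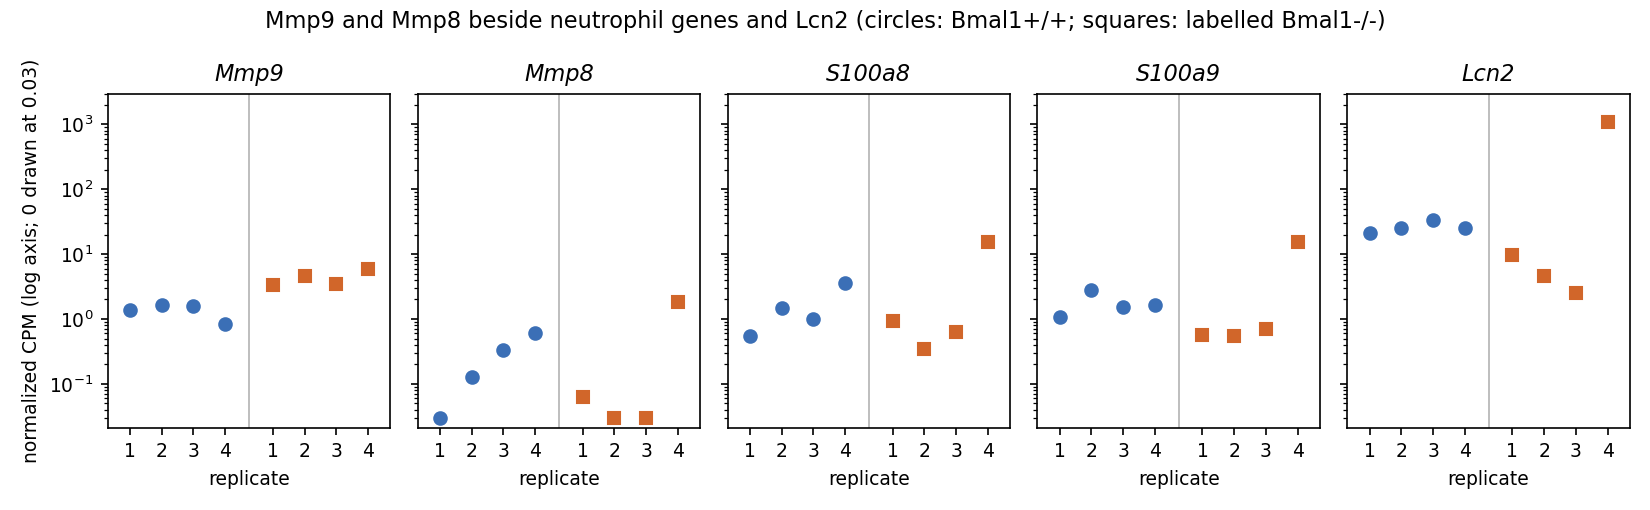
Normalized CPM (y axis, log scale, with 0 drawn at 0.03) of Mmp9, Mmp8, S100a8, S100a9 and Lcn2 in each library, by replicate number (x axis), with circles for Bmal1+/+ and squares for the label Bmal1-/-. Mmp9 is above all Bmal1+/+ libraries in 4 of 4 squares, whereas the other genes are high in replicate 4 and low in replicates 1 to 3.

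Levels between genes are compared per transcript length, as the deposited FPKM. Mmp19, a soluble MMP that cleaves basement membrane proteins, had the highest mean of all members, 21.7 FPKM over the 8 libraries, and made up 59.5% to 69.0% of the summed MMP FPKM in Bmal1+/+ and 60.4% to 67.2% in the other group. Among the MMPs, the membrane-anchored Mmp15 and Mmp14 followed with 6.38 and 3.30 FPKM, and Timp3 lay between them with 3.66 FPKM. Mmp19 was at 15.7 to 23.9 FPKM in Bmal1+/+ and 22.0 to 25.4 FPKM with the label Bmal1-/-, and the groups overlapped. Its log2 fold change was 0.22 (95% interval -0.02 to 0.47, adjusted p = 0.21, edgeR), and that of Mmp15 was 0.16 (-0.07 to 0.39, adjusted p = 0.33). These intervals leave room for a rise of about the size of their upper bounds.

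Mmp14, which activates pro-MMP2, was at 23.2 to 30.6 CPM in Bmal1+/+ and at 22.6 to 24.4 CPM in replicates 1 to 3 of the label Bmal1-/-, with 38.0 CPM in replicate 4. The log2 fold change was 0.04 (95% interval -0.31 to 0.38, adjusted p = 0.90, edgeR), and -0.17 without replicate 4. Mmp2, the other gelatinase and a typical product of fibroblasts, was low, at 0.941 to 3.01 CPM in Bmal1+/+ and 1.15 to 1.75 CPM in the other group. Its highest value was that of Bmal1+/+ replicate 4, and the log2 fold change of -0.33 (SE 0.34, edgeR adjusted p = 0.50) became 0.02 without it. Mmp11, Mmp23 and Mmp27 had at most 28 counts in a library and were not called, with adjusted p between 0.26 and 0.55. The exons of Mmp11 overlap those of Chchd10 on the opposite strand, a gene with up to 7338 counts.

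**Figure D4:**
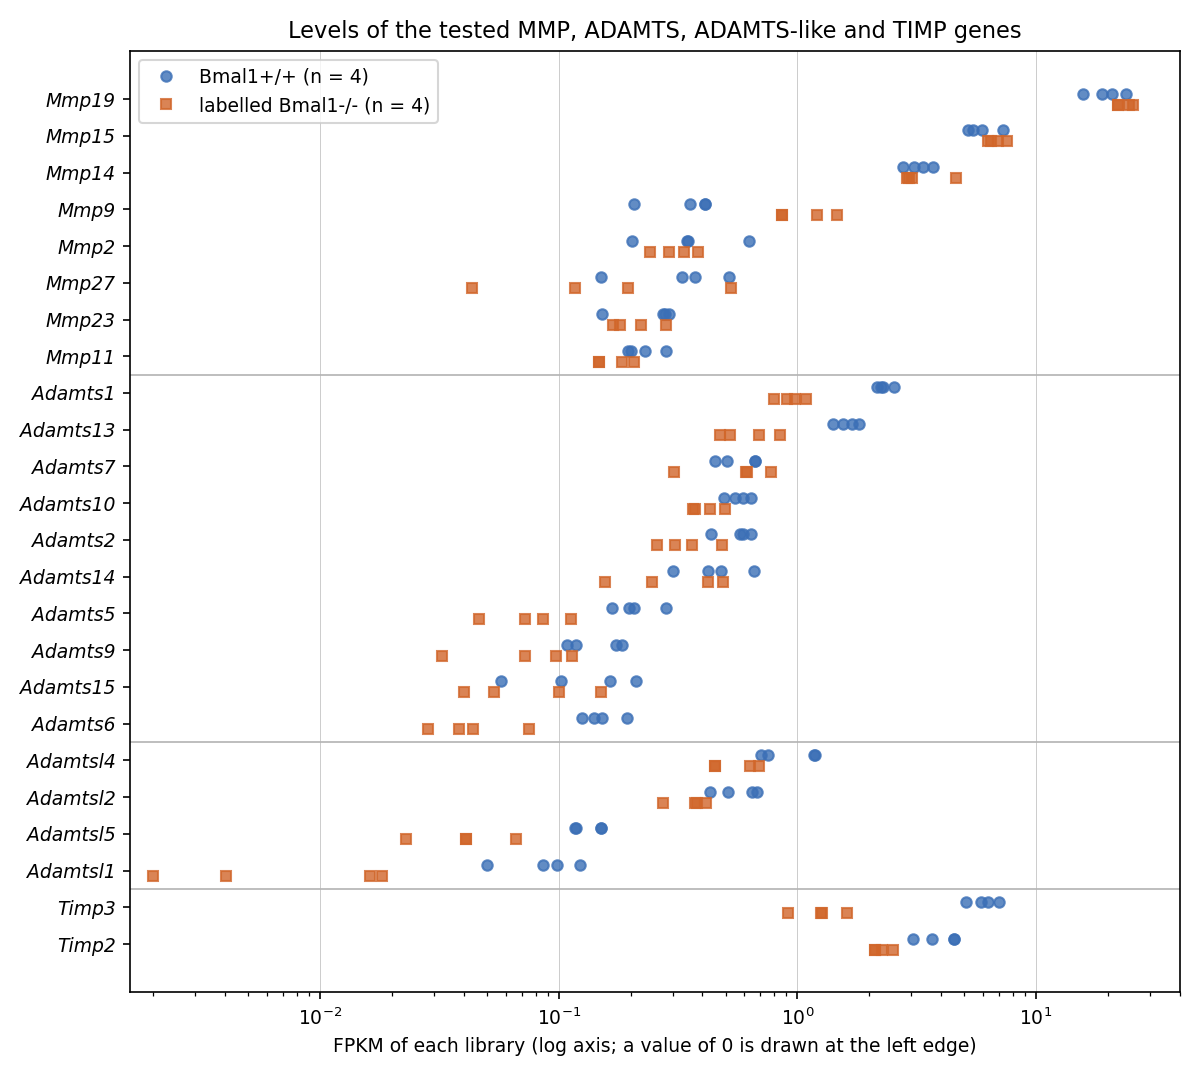
FPKM of each library (x axis, log scale) for the 24 tested members, grouped as MMP, ADAMTS, ADAMTS-like and TIMP genes, with circles for Bmal1+/+ (n = 4) and squares for the label Bmal1-/- (n = 4). Mmp19, Mmp15 and Mmp14 overlap between groups, while Timp3, Timp2, Adamts1 and Adamts13 do not.

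ADAMTS proteases were lower in 6 of the 10 genes tested and higher in 0, with a median log2 fold change of -0.80. Among all genes tested, 16.2% were lower and 14.9% higher. Those that cut proteoglycans such as versican and aggrecan were led by Adamts1. Its values were 14.1, 14.1, 14.3 and 16.4 CPM in Bmal1+/+ and 4.93, 6.02, 5.69 and 6.99 CPM with the label Bmal1-/-, in replicate order. Both groups were tight, and they did not overlap (2.49-fold lower, log2 fold change -1.32, SE 0.14, edgeR adjusted p = 1.4e-04). Adamts5, the main aggrecanase of cartilage, was at 1.86 to 3.12 CPM against 0.498 to 1.19 CPM, again without overlap (2.71-fold lower, log2 fold change -1.44, SE 0.30, edgeR adjusted p = 0.0059). Adamts1 and Adamts5 are near one another on chromosome 16, from 85793827 to 85803113 and from 85856173 to 85901828, both on the minus strand. Adamts9 had a log2 fold change of -0.92 and Adamts15 one of -0.65, with adjusted p of 0.077 and 0.35, and the groups overlapped in both.

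Adamts13 cleaves von Willebrand factor in blood and is made in liver mainly by stellate cells. It was at 9.21, 10.2, 8.40 and 7.91 CPM in Bmal1+/+ and at 3.68, 4.50, 2.85 and 2.65 CPM with the label Bmal1-/-. The groups did not overlap, and the difference was 2.61-fold (log2 fold change -1.38, SE 0.19, edgeR adjusted p = 7.2e-04). Its substrate Vwf, tested in the same fit, had a log2 fold change of -0.25 (adjusted p = 0.43). Adamts6, which acts on microfibril components, was at 1.95 to 3.01 CPM and 0.427 to 1.11 CPM in the same order of groups (3.34-fold lower, log2 fold change -1.74, SE 0.31, edgeR adjusted p = 0.0027). Adamts10, which binds fibrillin, had 7.43 to 9.27 CPM in Bmal1+/+ and 5.34 to 7.06 CPM in the other group, a smaller difference (log2 fold change -0.48, SE 0.14, edgeR adjusted p = 0.031). Adamts7, which cleaves COMP, did not differ beyond the replicate spread (log2 fold change -0.02, 95% interval -0.52 to 0.48, adjusted p = 0.96), and its exons overlap Tbc1d2b, which had up to 781 counts on the opposite strand.

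Adamts2 and Adamts14 remove the amino-terminal propeptide of fibrillar procollagens. Adamts2 was at 4.15 to 6.34 CPM in Bmal1+/+ and 2.49 to 4.75 CPM with the label Bmal1-/-, and it was the only called member whose groups overlapped (log2 fold change -0.69, SE 0.23, edgeR adjusted p = 0.047). Adamts14 had a log2 fold change of -0.54 (adjusted p = 0.29). Adamts3, of the same kind, did not pass the filter.

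The 4 ADAMTS-like genes that were tested were lower with the label Bmal1-/-, as were 16.2% of all genes tested. Adamtsl1 and Adamtsl5 passed the filter through Bmal1+/+ libraries alone, so they had to differ, and Adamtsl2 and Adamtsl4 are the 2 that passed through both groups. Adamtsl1, a secreted matrix glycoprotein, had 25, 35, 13 and 32 counts in Bmal1+/+ and 5, 4, 1 and 0 in the other group. The fitted log2 fold change of -3.19 (SE 0.58, edgeR adjusted p = 0.0029) therefore rests on counts at or near the floor, and it ranged from -3.70 to -2.55 under the alternative settings. Adamtsl5, which binds fibrillin microfibrils, was at 1.01 to 1.34 CPM against 0.204 to 0.562 CPM (log2 fold change -1.65, SE 0.33, edgeR adjusted p = 0.0048). Adamtsl2, a regulator of microfibrils and TGF-β availability, was at 4.10 to 6.68 CPM against 2.63 to 3.87 CPM (log2 fold change -0.69, SE 0.21, edgeR adjusted p = 0.034). It lies near Adamts13 on chromosome 2, from 27079379 to 27108981, where Adamts13 spans 26973416 to 27009628. Adamtsl4, which supports fibrillin deposition, was at 4.12 to 6.98 CPM against 2.49 to 4.00 CPM (log2 fold change -0.80, SE 0.25, edgeR adjusted p = 0.034).

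The calls of 4 members depended on single libraries. Adamts10 lost its call without replicate 1 or 3 of Bmal1+/+ or replicate 2, 3 or 4 of the label Bmal1-/-, with adjusted p from edgeR between 0.063 and 0.087. Adamts2 lost it without Bmal1+/+ replicate 2, 3 or 4 or replicate 1, 2 or 3 of the label Bmal1-/- (0.089 to 0.12). Adamtsl2 lost it without replicate 2 or 4 of Bmal1+/+ or replicate 2 or 3 of the label Bmal1-/- (0.069 to 0.091). For Adamtsl4 the libraries were replicates 2 and 3 of Bmal1+/+ and replicates 1 to 3 of the label Bmal1-/- (0.054 to 0.097). The count of ADAMTS-like genes called lower was 2 without Bmal1+/+ replicate 2 or without replicate 2 or 3 of the label Bmal1-/-. The other 9 called members kept their call with each library left out. Adamtsl1 and Adamtsl5 are among them, and these passed the filter through Bmal1+/+ libraries alone.

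Summed per family, the FPKM of the 4 TIMPs lay between 8.25 and 11.5 in Bmal1+/+ and between 3.03 and 4.01 with the label Bmal1-/-. The 19 ADAMTS genes summed to 6.65 to 7.13 and 3.22 to 4.07 FPKM, and the 5 ADAMTS-like genes to 1.47 to 2.11 and 0.770 to 1.14 FPKM. None of these sums overlapped between the groups, whereas those of the 23 MMPs did, at 26.3 to 34.6 and 33.4 to 37.9 FPKM. Summed MMP FPKM divided by summed TIMP FPKM was 2.29 to 3.78 in Bmal1+/+ and 9.14 to 12.1 in the other group. This ratio of transcripts is a description without a test, and Mmp19 makes up most of its numerator.

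**Figure D5:**
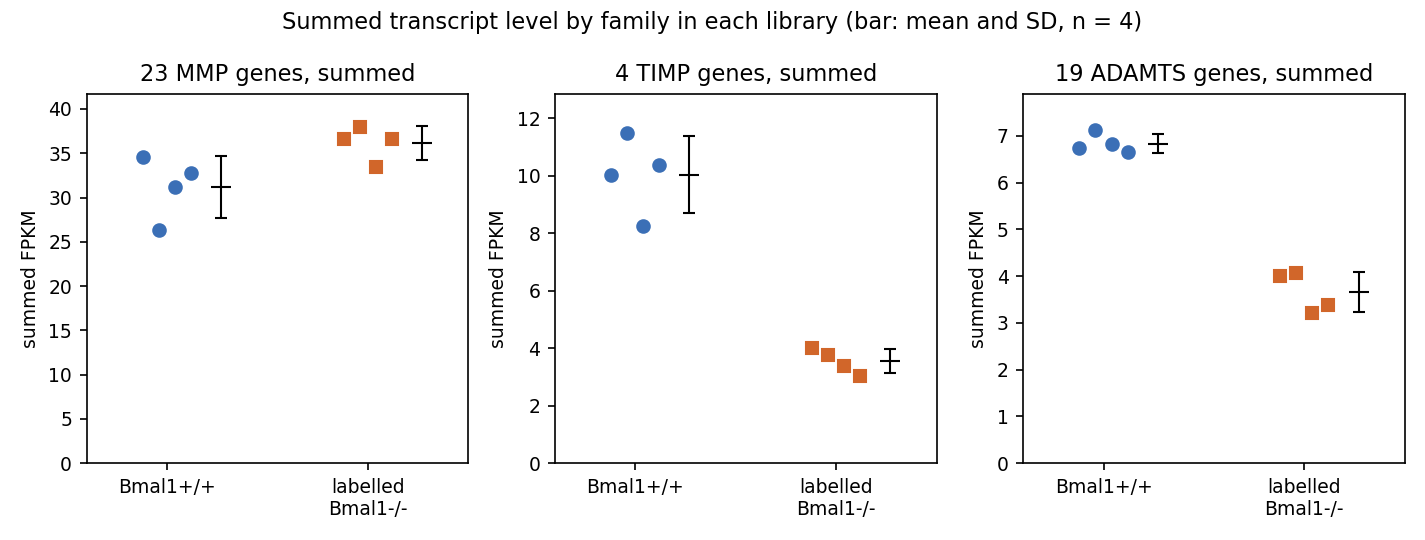
Summed FPKM (y axis, linear, from 0) of the 23 MMP, 4 TIMP and 19 ADAMTS genes in each library, in replicate order, with the mean and SD (n = 4) of each group beside the points. The TIMP and ADAMTS sums of the libraries labelled Bmal1-/- lie below all Bmal1+/+ libraries, and the MMP sums overlap.

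Of the 27 members without a test, 4 had no count in any library (Mmp1a, Mmp1b, Mmp10 and Adamts20). Another 16 had a highest count between 1 and 9 and 7 reached 10 or more, with the highest being the 27 counts of Mmp8. In 14 members no library exceeded the floor of 3 counts. Of the collagenases, Mmp13 had at most 7 counts, fewer than Mmp8. Of the stromelysins and matrilysin, Mmp3 had at most 3 counts and Mmp7 at most 16, while Mmp11 passed the filter. With no filter, the lowest adjusted p among the 27 untested members was that of Adamts4, an aggrecanase named here after its values were seen. It had 2, 1, 4 and 0 counts in Bmal1+/+ and 12, 9, 4 and 9 with the label Bmal1-/-, with a fitted log2 fold change of 2.30 (edgeR adjusted p = 0.052), opposite in sign to the ADAMTS genes called lower. Strand use in the counting is not given, so reads from opposite strands cannot be told apart for any member.

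Genes that act with these proteases were counted on 6 lists of 70 genes, of which 56 were tested, 16 were lower and 6 were higher. Among all genes tested, 16.2% were lower and 14.9% higher. Genes of these lists with an absolute log2 fold change under 1 are named after their values were seen. Of 13 tested activators, inhibitors and receptors of MMPs, 4 were lower and 0 higher. Reck, a membrane-anchored inhibitor of MMP9, MMP2 and MMP14, was at 3.25, 6.72, 4.30 and 8.13 CPM in Bmal1+/+ and at 2.25, 1.52, 1.07 and 0.950 CPM with the label Bmal1-/-, without overlap (log2 fold change -1.94, SE 0.36, edgeR adjusted p = 0.0034). Cd44, a hyaluronan receptor that anchors MMP9 at the cell surface, was at 15.6 to 19.9 CPM against 3.53 to 11.5 CPM, with replicate 4 the highest of the latter (log2 fold change -1.58, adjusted p = 0.0064). Thbs1, which binds MMPs and mediates their uptake, had a log2 fold change of -1.70 (adjusted p = 0.039). Pcsk6, a proprotein convertase, was the last of the 4 (log2 fold change -0.51, adjusted p = 0.0039).

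In the plasminogen system, whose protease plasmin activates several pro-MMPs, 2 of 9 tested genes were lower and 2 higher. Both counts are near the shares over all genes tested, 16.2% lower and 14.9% higher. Thbd (thrombomodulin) had a log2 fold change of -1.79 and Plaur, the urokinase receptor, one of -1.11, with adjusted p of 0.0050 and 0.030 from edgeR. Plg, plasminogen itself, and F12, coagulation factor XII, both made by hepatocytes, had log2 fold changes of 0.65 and 0.56 (adjusted p of 0.0076 and 0.014). The ADAM list had 2 of 9 lower, near the 16.2% of all genes, and 0 higher. Adam33 had a log2 fold change of -1.10 and Adamdec1 one of -0.83 (edgeR adjusted p of 0.049 and 0.024). The list of astacin proteases and their enhancers had 3 tested genes. Bmp1, the procollagen C-proteinase, was higher by 0.59 on the log2 scale, and Pcolce2, its enhancer, had a log2 fold change of -0.83 (adjusted p of 0.0017 and 0.042). Of 9 genes on the cathepsin list, which holds the cathepsin inhibitor Cst3, 3 were lower and 1 higher. Ctsk, which degrades collagen, had a log2 fold change of -1.09, Ctss one of -0.85 and Ctsb one of -0.51 (adjusted p of 0.021, 0.022 and 0.018), while Ctsl, a lysosomal protease, was 1.96-fold higher (adjusted p = 2.6e-04). Some of these calls rested on single libraries. Thbs1 lost its call without replicate 2 or 4 of Bmal1+/+ or replicates 1, 2 or 3 of the label Bmal1-/- (0.052 to 0.099), and Ctsk without replicates 2 or 3 of Bmal1+/+ or replicate 4 of the label Bmal1-/- (0.051 to 0.056). Plaur and Adam33 lost it without any library other than Bmal1+/+ replicate 4 (0.052 to 0.088 and 0.059 to 0.13). Over the 6 lists, 10 genes were lower without Bmal1+/+ replicate 1 or without replicate 2 or 3 of the label Bmal1-/-.

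Of 13 tested substrates, 4 were lower and 2 higher, where 16.2% and 14.9% of all genes tested were. The 2 that rose encode the type IV collagen chains of basement membranes, a substrate of gelatinases. Col4a1 was at 22.4 to 29.3 CPM in Bmal1+/+ and 38.5 to 56.8 CPM with the label Bmal1-/- (2.03-fold higher, adjusted p = 9.8e-04, edgeR). Col4a2 was at 13.5 to 18.1 and 30.9 to 54.1 CPM (3.01-fold higher, adjusted p = 2.0e-04). In both the groups were apart. The 4 that were lower were Col3a1 (log2 fold change -0.98), Sdc1 (-0.79), Col1a2 (-0.76) and Dcn (-0.70), with adjusted p between 0.0023 and 0.0085.

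Markers of the cell types that make these transcripts also moved with the label. Beside the counts below, 16.2% of all genes tested were lower and 14.9% higher. Of 11 tested markers of fibroblasts and stellate cells, 5 were lower and 0 higher (Lrat, Lum, Col3a1, Col1a2 and Dcn), and the list of 12 summed to 216 to 320 CPM in Bmal1+/+ and 148 to 179 CPM in the other group. Macrophage and Kupffer cell markers were lower in 7 of 8 (508 to 640 against 223 to 461 CPM), and endothelial markers in 5 of 8 (291 to 336 against 201 to 274 CPM). Of 10 hepatocyte markers, Alb was lower and Apoa1 higher. Biliary and intestinal epithelial markers summed to 11.9 to 22.5 against 28.8 to 39.5 CPM, with 2 of 4 tested genes lower and 2 higher. The higher sum was that of Cdh1 (means of 8.18 against 19.3 CPM) and Sox9 (2.28 against 13.1 CPM). Krt19 (2.33 against 0.509 CPM) and Epcam (1.51 against 0.600 CPM) were the 2 that were lower. Lymphocyte sums overlapped (4.97 to 5.90 against 3.46 to 5.81 CPM), and of 5 tested genes edgeR called 0, with 1 at an unadjusted p below 0.05. In bulk RNA, fewer cells of a type and less RNA per cell cannot be told apart, and the part of these markers in the results for Timp3, Timp2 and the ADAMTS genes was not tested.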

How the data were processed

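Paired-end RNA sequencing was done on 8 libraries, 4 per group, grouped by the genotype label. The authors deposited raw counts per gene, which are whole numbers without normalization, and FPKM. The study's methods name HISAT2 on GRCm38, StringTie and edgeR with TMM, whereas the submitters' processing notes name CASAVA 1.8 and TopHat2 2.0.6. Strand use in the counting is not given in the sources used here. The deposited FPKM were the count over the library total and 1 fixed length per gene in 100% of 11442 genes checked, and were used for levels between genes only.

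Counts were analysed in R 4.3.3 with edgeR 4.0.16 (filterByExpr, a cutoff of 0.652 CPM in at least 4 libraries, TMM, quasi-likelihood test, prior count 0.125, Benjamini-Hochberg adjustment over 14353 genes). Alternatives used DESeq2 1.42.0, limma 3.58.1 (voom), other normalizations and filters, a prior count of 2, the replicate number as a block and leaving out each library. Plots used matplotlib 3.10.9 under Python 3.11.15. Standard errors are the log2 fold change over the square root of F, and intervals are normal 95% intervals. The test was tested on simulated counts with 200 changed genes among 14203 (Bmal1-/- against Bmal1+/+). It recovered 75% of 2-fold and 100% of 4-fold changes, and 3.85% of its calls were false. The changed genes were drawn only from genes above a minimum expected count, and all genes shared a common dispersion of 0.0506. These rates therefore do not cover members with few counts, or genes whose spread differs from that value. A limit first set for the recovery of 2-fold changes was not met, and it was replaced by limits on false calls, bias and 4-fold recovery, with the test itself left as it was.

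Members, gene lists and tests were chosen with earlier results of these data known. Symbols and coordinates are from GENCODE M21 (GRCm38), older than the authors' annotation, and 99.5% of 55487 identifiers matched. Genes named by rule are members with an adjusted p below 0.05, the 4 TIMPs, Mmp2, Mmp9, Mmp14, the 10 members with the highest mean FPKM, and listed genes with an adjusted p below 0.05 and an absolute log2 fold change above 1. Other genes, the motifs and the 5 promoters were chosen after values were seen. Promoters for 36 members were in the RefSeq table, and the other 15, 5 of them called, were not used here. Depth was 14054825 to 18449143 counts, and floors and intervals cover counting error and replicate spread only. No pair of libraries was a duplicate, with a chi-square per degree of freedom of at least 18.0 within groups.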

Additional observations from a re-analysis of the deposited data

Results flagged for a closer look

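Single libraries far from the other 3 of their group (Dixon's test, 66 groups of 4, in members that are named or reach 10 counts) gave 6 values, where chance gives about 1 in 20 groups, or 3.3. Replicate 4 of the libraries labelled Bmal1-/- held 2 of them. Mmp14, the membrane-type activator of pro-MMP2, was at 38.0 CPM there against 22.6 to 24.4 CPM in the other 3, and Mmp8, the neutrophil collagenase, was at 1.83 CPM against 0 to 0.0624 CPM. In the same library S100a8 and S100a9 were at 15.2 CPM each and Saa1 at 7751 CPM, and the part of these transcripts in the Mmp14 and Mmp8 values was not tested. Timp1 had 3 counts (0.187 CPM) in replicate 1 of this label and 0 in the others, which is at the floor.

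In Bmal1+/+ libraries, Adamts1 was at 16.4 CPM in replicate 4 against 14.1 to 14.3 CPM, a small gap between tight values. Adamtsl3 was at 0.835 CPM in the same library against at most 0.134 CPM. Mmp7, the matrilysin of epithelia, was at 1.02 CPM in replicate 2 against at most 0.120 CPM. The biliary keratins Krt19 and Krt7 were highest in this library too, with 5.70 and 2.05 CPM, and their part in the Mmp7 value was not tested.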

How the results depend on the processing

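Of the 13 called members, 9 kept their direction and call in each of 15 or 16 alternative settings in which they were tested (Timp3, Timp2, Adamts1, Adamts13, Adamts5, Adamts6, Adamtsl1, Adamtsl5 and Mmp9). In the setting with a prior count of 2 no call could be lost, since it alters the fitted fold change but not the p-value. Adamtsl1 and Adamtsl5 passed the filter through Bmal1+/+ libraries alone, so their kept calls are no further support. Calls were lost in 8 of 16 settings for Adamts10 and Adamts2, 7 for Adamtsl4 and 5 for Adamtsl2. Members called lower numbered 8 to 11 with each library left out and 8 to 13 in the other settings, and 1 was higher throughout. With at least 10 counts in every sample, 3 members were lower by the criterion of the methods and 2 ADAMTS-like genes were called, since fewer genes were tested. With no filter, 2 members were higher by the criterion, as more genes were tested, and 2 ADAMTS-like genes were called lower (the cause was not tested). Leaving out each library gave 2 to 4 ADAMTS-like genes and 10 to 19 listed genes called lower. Uncalled values changed sign: Adamts7 was 0.00 (0.0042) with library size only and -0.22 to 0.18 with each library left out, Mmp2 was -0.54 to 0.02 (0.0226 without Bmal1+/+ replicate 4), and Mmp14 was -0.17 to 0.12.

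Same-numbered libraries of the groups were not treated as paired. Their deviations correlated at -0.064, 0.063, 0.043 and 0.036, which cannot show how the libraries were handled. With the replicate number as a block, 9 members were lower and 1 was higher, and Adamts10, Adamtsl4 and Adamts2 lost their calls (adjusted p of 0.056, 0.097 and, just above the threshold, 0.050, edgeR). Genes with few counts limit the precision, and 14 members never exceeded 3 counts.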
